A study of Mus musculus with 16 samples.

Results

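Mouse embryonic stem cells in which a c-Raf kinase had been switched on for 8 hours were compared with the same kind of cells after 4 hours, as 2 replicate pairs of arrays. The 4 arrays of this step were taken from a time course of 16 arrays in 8 groups of 2. The cells were E14tg2a, an established stem cell line, carrying a fusion of c-Raf that is constitutively active once 4-hydroxytamoxifen (4OHT) is added. All cells grew on gelatin in serum with LIF, the cytokine that maintains self-renewal. The 4h and 8h groups had been held for 24 hours in 250 nM PD173074, an inhibitor of FGF receptors, and then received 250 nM 4OHT with the inhibitor still present. The groups used beside them were DMSO (vehicle, neither inhibitor nor 4OHT), 0h (inhibitor, uninduced), 2h and 24h, and the 30m and 1h groups entered the fit. For the 4h samples the title and time point (4h) were used, since their description speaks of minutes. Stem cells given 4OHT without the fusion, or without the inhibitor, were not analysed here, so the arrays cannot tell the fusion's activity apart from other effects of 4OHT or of time in culture. Whether replicates were separate cultures is not stated in the labels. The p-values then measure only the variation between these arrays, which may be technical.

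As background, c-Raf starts a kinase cascade in which Raf phosphorylates Mek and Mek phosphorylates Erk. Erk signalling switches on immediate early transcription factors within minutes, then inhibitors that restrain the same cascade, such as the dual specificity phosphatases and the Sprouty proteins. In mouse embryonic stem cells the cascade normally runs from autocrine Fgf4, and its activity moves cells out of the naive pluripotent state towards differentiation. A comparison of 8 with 4 hours asks which transcripts still moved after that first response.

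The deposited data hold conflicting records of which array is which sample. Each scanner file matched a single column of the authors' value table at 100% of spots within a tolerance of 0.6%, and the next best column at 1.17 to 4.99%. For 8 of the 16 arrays, the heading of that column and the sample that the scanner file was filed under disagree. The headings were used here. They place replicate 1 of every group on 1 slide and replicate 2 on the other, so replicate number and slide cannot be told apart. Both records give the same arrays for replicate 2 of 4h and of 8h. For replicate 1, the attached files would be the arrays headed 0h replicate 2 and 30m replicate 2. Egr1, an immediate early transcription factor, reached 0.72 and 1.68 on those arrays, against 6.80 (4h) and 6.01 (8h) on the arrays headed replicate 1, and 5.53 (4h) and 4.58 (8h) for replicate 2. Phlda1, an Erk-induced gene, stood at -1.18 and -1.13 there, against 5.52 and 5.24 by the headings and 4.49 and 4.23 for replicate 2. Levels here and below are log2 signals minus the array's 75th percentile, so a level of 0 is the 75th percentile of that array, and levels are compared between arrays and never between genes. The arrays of the headed replicate 1 were therefore near replicate 2 for these genes, and those of the attached record were not.

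The 16 arrays had 54.9 to 67.2% of spots well above background, no saturated spot, and a 75th percentile signal of 445 to 660. The number of arrays limits the precision. The replicates correlated at 0.987 for 4h and 0.982 for 8h. All 7 embryonic stem cell markers, among them Pou5f1, Sox2 and Nanog, were well above background on all 4 arrays, and none was called as changed.

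Between 4 and 8 hours 1353 of 15660 genes tested changed, which is 8.64% (limma, Benjamini-Hochberg adjusted p under 0.05). Of these, 688 were higher at 8h (4.39% of genes tested) and 665 were lower (4.25%). All 1353 had the same sign in both replicate pairs, whose mean is the fitted change, so this is no separate check. Of the 1353, 1238 were well above background on all 4 arrays. In that subset the median size of a change was 0.69 on the log2 scale, 320 genes changed over 2-fold and 36 over 4-fold. The median standard error over all genes tested was 0.15, and the median change was -0.07. In such bulk samples, fewer cells of a kind and less RNA per cell cannot be told apart.

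The count rested on the replicate block and on single arrays. Without the block 178 genes were called (127 higher, 51 lower), all of them among the 1353. The count was 167 without 4h replicate 1, 226 without 8h replicate 1, 545 without 4h replicate 2 and 1593 without 8h replicate 2, where the lone remaining array of that group was assumed to vary like the other groups. Both with all arrays and without each of the 4 in turn, 122 genes were called, 88 higher and 34 lower. With each array under the sample of its scanner file, 5 genes were called. Every change given below is a fitted 8h minus 4h difference on the log2 scale ± its standard error over 2 pairs.

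**Figure D1:**
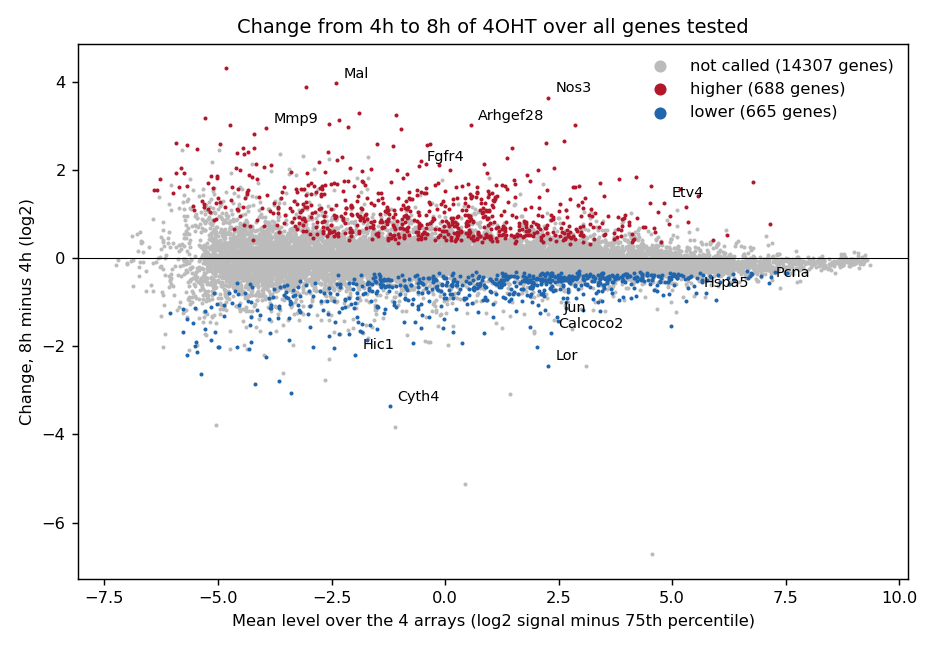
Change from 4h to 8h (log2, y axis) against the mean level over the 4 arrays (log2 signal minus 75th percentile, x axis), 1 point per gene tested; red points are the 688 genes higher at 8h, blue points the 665 lower, grey points not called. The called rises reach farther from 0 than the called falls, and most called genes lie within 2 log2 units of 0.

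The largest rises among genes measured on all 4 arrays included membrane, adhesion and signalling proteins. Mal, a membrane raft protein of apical transport, stood at -4.27 and -4.50 at 4h (replicates 1 and 2) and at 0.36 and -1.18 at 8h. Nos3, the endothelial nitric oxide synthase, stood at 0.77 and 0.12 at 4h and at 4.86 and 3.33 at 8h. Thy1, a glycolipid-anchored surface glycoprotein, stood at 1.39 and 1.20 at 4h and at 4.26 and 3.67 at 8h. For each of these genes both 8h arrays were above both 4h arrays. The fitted changes were 3.97 ± 0.64 for Mal (15.7-fold, adjusted p = 0.00932), 3.65 ± 0.51 for Nos3 (12.5-fold, adjusted p = 0.0051) and 2.67 ± 0.21 for Thy1 (6.37-fold, adjusted p = 0.000552). Thy1 also marks fibroblasts. Of the 6 fibroblast or feeder markers it was the only one called, and Lum was well above background on none of the 4 arrays. Col1a1, Col1a2 and Dcn changed by -0.40, -0.11 and -0.33 and Col3a1 by 0.47, all without a call. Dcn and Col3a1 were not well above background on every array. The summed level of the 5 markers other than Thy1 was -1.56 and -1.52 at 4h and -1.60 and -1.71 at 8h.

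Other strong rises fell into a few kinds of protein. Arhgef28, an exchange factor for small GTPases, stood at -0.79 and -1.09 at 4h and at 2.51 and 1.65 at 8h, a change of 3.02 ± 0.26 (adjusted p = 0.0011). Esam, an adhesion molecule of endothelial junctions, went from -2.43 and -2.45 to 0.56 and 0.43 (2.94 ± 0.32, adjusted p = 0.00213). In these genes, too, no 8h array was as low as a 4h array. Capn2, the catalytic subunit of a calcium-dependent protease, rose by 2.61 ± 0.31 (6.09-fold, adjusted p = 0.00298). Plb1, a phospholipase, Ubash3b, a tyrosine phosphatase, Flt1, a VEGF receptor, Insc, an adaptor of spindle orientation, and Grm6, a glutamate receptor, rose by 2.97 to 3.29, with adjusted p between 0.00681 and 0.0244. Among these rises, Nos3, Arhgef28, Esam, Thy1 and Capn2 were called without any 1 of the 4 arrays. Leaving out 4h replicate 1, 8h replicate 1 or 4h replicate 2 ended the call of at least 1 of the others. Without the block Ubash3b and Grm6 were not called (adjusted p = 0.0528 and 0.072).

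A further set of genes could be measured only at 8h. Mmp9, a secreted gelatinase, was not well above background at 4h and stood at -2.62 and -2.32 at 8h, which makes it at least 5.24-fold higher (adjusted p = 0.00457). For this bound the 8h mean was set against each 4h array's detection limit, the lowest signal of any probe that was well above background there, or the probe's own signal where higher. The uncharacterised transcript 4930503E14Rik was at least 4.71-fold higher, but its 8h arrays differed widely, at -4.20 and -1.14. Meox1, a homeobox factor of somites, was at least 4.29-fold higher and Tmem229a, a transmembrane protein, at least 3.85-fold. Otud7a, a deubiquitinase, was at least 3.41-fold higher and Itgax, an integrin alpha chain of leukocytes, at least 3.26-fold. Mmp9 and Otud7a were called without any 1 of the 4 arrays and without the block.

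Among called genes measured on all 4 arrays, the largest fall was that of Cyth4, a cytohesin that activates Arf GTPases. It stood at 0.45 and 0.48 at 4h and at -3.06 and -2.72 at 8h, a change of -3.36 ± 0.25 (10.3-fold lower, adjusted p = 0.000552). The group means were -3.43 at 0h, -2.72 at 2h and -2.29 at 24h, so the high values were those of the 4h arrays. Lor, which encodes loricrin of the skin's cornified envelope, stood at 4.14 and 2.82 at 4h and at 1.67 and 0.42 at 8h. Hic1, a transcriptional repressor, stood at -0.33 and -1.44 at 4h and at -2.75 and -3.39 at 8h. In both genes the 4h arrays were above the 8h arrays, and the changes were -2.44 ± 0.25 (adjusted p = 0.00182) and -2.19 ± 0.28 (adjusted p = 0.00382). These 3 genes kept their call without any 1 of the 4 arrays; without the block Lor did not (adjusted p = 0.0886). Another probe of Hic1 changed by -1.31 ± 0.38 and was not called (adjusted p = 0.0653).

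Other large falls were those of enzymes, signalling proteins and a predicted gene. Usp35, a deubiquitinase, changed by -2.03 and the predicted gene Gm13889 was 4.01-fold lower. Hhip, which binds hedgehog ligands, changed by -1.85 and Prkca, protein kinase C alpha, by -1.76. Dglucy, a D-glutamate cyclase, changed by -1.73, Sertad4 by -1.71 and Calcoco2, an autophagy receptor, by -1.70. Their adjusted p ranged from 0.0112 to 0.0447. For Dglucy and Calcoco2 the groups overlapped: Calcoco2 stood at 2.40 and 3.95 at 4h and at 0.29 and 2.66 at 8h, and both arrays of replicate 1 were below those of replicate 2 at the same time. Each of these 7 genes lost its call without at least 1 of the 4 arrays, and without the block only Usp35 (adjusted p = 0.0394) and Sertad4 (adjusted p = 0.0482) were. Other probes of Usp35, Prkca and Dglucy changed by -1.48, -0.84 and -0.61 without a call. Klk5, a kallikrein protease, was measured only at 4h and was at least 4.27-fold lower at 8h. Tspan18, a tetraspanin, was at least 2.77-fold lower, Ntsr2, a neurotensin receptor, 2.07-fold, Kcna1, a potassium channel, 1.99-fold, Fras1, a basement membrane protein, 1.75-fold and Dscaml1, an adhesion molecule, 1.66-fold, each as a lower bound. At 4h Ntsr2 and Dscaml1 were well above background on only 1 array. The signal of the dim 4h array entered their 4h mean, so their bounds are less certain. Another probe of Ntsr2 changed by 0.08 (adjusted p = 0.88).

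**Figure D2:**
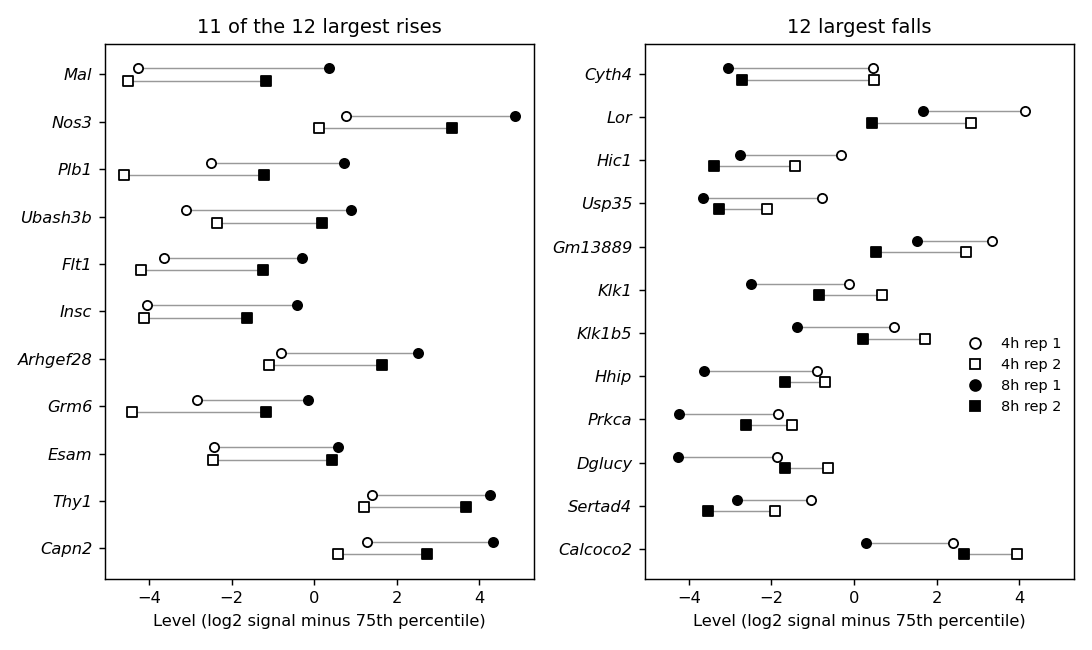
Levels (log2 signal minus 75th percentile, x axis) of 11 of the 12 largest rises (left) and 12 largest falls (right) among genes well above background on all 4 arrays; open symbols are 4h, filled symbols 8h, circles replicate 1, squares replicate 2, and a line joins each pair. Every pair of a gene moves the same way, and in Dglucy and Calcoco2 the levels of the 2 times overlap.

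Klk1 and Klk1b5, tissue kallikreins that cut peptide hormone precursors, were also among the largest falls. Klk1 stood at -0.13 and 0.66 at 4h and at -2.49 and -0.85 at 8h (-1.93 ± 0.41, adjusted p = 0.0253). Klk1b5 stood at 0.96 and 1.72 at 4h and at -1.39 and 0.22 at 8h (-1.93 ± 0.46, adjusted p = 0.0351). For both, the 8h arrays were below the 4h arrays, with replicate 1 falling farther. Klk1b4 (-1.65) and Klk1b24 (-1.60), named after their values were seen, were lower too. These genes lie side by side on mouse chromosome 7 and are close paralogs, so their probes may share signal, and the 4 are not independent results. The 120 bases upstream of each start (RefSeq, GRCm38.p6, plus strand, at chr7:44225240-44225359, chr7:44207313-44207432, chr7:44216354-44216473 and chr7:44188116-44188235 in the order below) are shown side by side:
Klk1: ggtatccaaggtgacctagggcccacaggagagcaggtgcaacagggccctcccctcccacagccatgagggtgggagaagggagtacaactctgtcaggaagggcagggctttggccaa
Klk1b4: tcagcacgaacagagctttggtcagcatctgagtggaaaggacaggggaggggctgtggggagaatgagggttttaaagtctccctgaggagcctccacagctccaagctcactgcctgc
Klk1b5: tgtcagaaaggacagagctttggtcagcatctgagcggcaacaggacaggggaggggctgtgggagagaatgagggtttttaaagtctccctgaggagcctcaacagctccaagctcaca
Klk1b24: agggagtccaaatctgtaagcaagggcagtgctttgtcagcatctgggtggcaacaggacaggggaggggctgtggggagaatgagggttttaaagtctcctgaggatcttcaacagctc
After global alignment Klk1b4 and Klk1b5 shared 89.2% of these 120 bases, Klk1b5 and Klk1b24 81.7%, and Klk1b4 and Klk1b24 76.7%. Klk1 shared 37.5 to 45.0% with the other 3. The end of its stretch resembles the beginning of that of Klk1b24, and an alignment over whole stretches can miss such a shift. The low values for Klk1 are therefore no measure of divergence. These bases lie upstream of the transcripts, so they do not show whether the probes share signal. Without the block Klk1 and Klk1b5 were not called (adjusted p = 0.317 and 0.318).

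None of the cascade's own transcripts was called, and Jun and Maff fell among the immediate early factors. Of 19 genes of the Raf, Mek and Erk cascade tested, none was called, against 8.64% of all genes tested, with a median change of -0.04. Of 19 immediate early transcription factors, 2 were lower (10.5%, against 4.25% of all genes tested) and none higher, with 4 changes above 0 and a median of -0.31. Jun, a subunit of the AP-1 factor, stood at 3.51 and 2.74 at 4h and at 1.80 and 1.78 at 8h, a fall of 1.33 ± 0.29 (adjusted p = 0.0273). Its group mean had been 4.54 at 2h and 1.83 at 0h, and its mean at 8h was 1.79, close to the uninduced mean. Maff, a small Maf factor, stood at 2.78 and 1.53 at 4h and at 1.21 and 0.69 at 8h (-1.20 ± 0.28, adjusted p = 0.0327). Egr1 changed by -0.87 ± 0.28 (adjusted p = 0.0926) and Fos by -1.19 ± 0.32 (adjusted p = 0.0514), which missed the threshold although both pairs went down. Fosl1 and Junb, 2 further AP-1 subunits, changed by -0.14 and 0.22. Without the block neither Jun (adjusted p = 0.101) nor Maff (adjusted p = 0.254) was called.

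Early signalling genes moved in both directions. Of 18 genes for transcript decay and early signalling, 2 were higher and 2 lower. Each is 11.1%, against 4.39% higher and 4.25% lower of all genes tested. Ccn1, a matricellular protein, stood at 1.51 and 1.13 at 4h and at 0.31 and -0.09 at 8h (-1.21 ± 0.16, adjusted p = 0.00477), and its relative Ccn2 fell by 1.00 ± 0.20 (adjusted p = 0.0203). Ier5 (1.14 ± 0.25) and Ier3 (0.62 ± 0.16), immediate early response genes, were higher (adjusted p = 0.0278 and 0.0435). Only Ccn1 of the 4 was called without the block.

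Of 19 genes listed as feedback inhibitors of kinase signalling, 1 was called lower (5.26%, against 4.25% of all genes tested) and none higher. The median change was -0.17. Dusp16, a phosphatase of Jnk and p38 kinases, stood at 3.52 and 2.97 at 4h and at 2.28 and 1.93 at 8h (-1.14 ± 0.14, adjusted p = 0.00289); the call was lost without the block (adjusted p = 0.0676) and kept without any 1 of the 4 arrays. Dusp6, the phosphatase of Erk, stood at 5.82 and 5.04 at 4h and at 5.94 and 4.88 at 8h, and the levels of the 2 times overlapped. Its change was -0.02 ± 0.24. Dusp4, a nuclear Erk phosphatase, changed by -0.48 ± 0.20, Spry4 by -0.33 ± 0.36, Spry2 by 0.23 ± 0.15 and Phlda1 by -0.27 ± 0.32, none of them called. All 5 were called higher at 24h than at 0h, by 2.55 (Spry2) to 6.16 (Phlda1).

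Of 13 ETS transcription factors, which Erk phosphorylates or induces, 2 were higher and 1 lower. That is 15.4% and 7.69%, against 4.39% and 4.25% of all genes tested. Etv4 stood at 4.75 and 3.62 at 4h and at 5.97 and 4.94 at 8h, higher by 1.26 ± 0.28 (adjusted p = 0.0293). Within each pair the 8h array was above the 4h array. Its mean ran from 1.79 at 0h through 2.72 at 2h to 6.75 at 24h. Elk3 rose by 1.23 ± 0.30 (adjusted p = 0.0387) and Ets2 fell by 0.73 ± 0.13 (adjusted p = 0.0143). Other probes of Elk3 changed by 1.21, with a call, and by 0.20, without one. Etv5 changed by -0.35 ± 0.12 (adjusted p = 0.115). Without the block Etv4 (adjusted p = 0.503) and Elk3 (adjusted p = 0.0963) were not called.

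**Figure D3:**
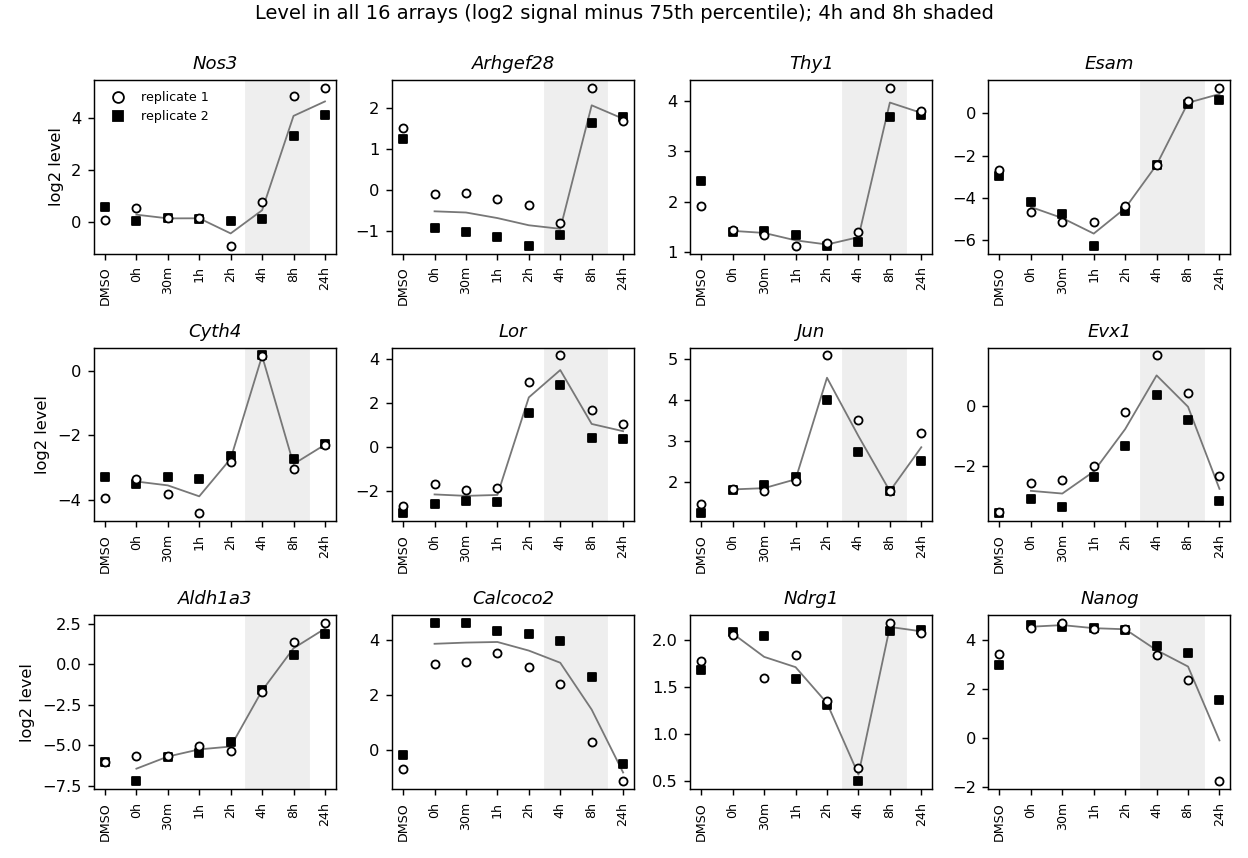
Level (log2 signal minus 75th percentile, y axis) of 12 genes on all 16 arrays, by group (x axis); open circles are replicate 1, black squares replicate 2, the line joins the means of the 0h to 24h groups, and 4h and 8h are shaded. Cyth4 is high on the 4h arrays alone, Jun is at 1.79 at 8h and 1.83 at 0h, Ndrg1 is lowest at 4h, and Nos3, Arhgef28 and Thy1 climb between 4h and 8h.

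No naive pluripotency gene was called lower at 8h, and Gbx2 and Pecam1 rose. Of 21 tested, 2 were higher (9.52%, against 4.39% of all genes tested) and none lower. In this list 18 of the fitted changes were below 0 and the median was -0.36, against -0.07 over all genes. Klf4, a reprogramming factor, stood at 3.98 and 4.25 at 4h and at 2.40 and 3.43 at 8h (-1.20 ± 0.60, adjusted p = 0.239). Nanog stood at 3.40 and 3.76 at 4h and at 2.36 and 3.47 at 8h (-0.67 ± 0.75, adjusted p = 0.626). Esrrb, an orphan nuclear receptor of the naive network, changed by -0.44 ± 0.37. In Klf4 both 8h arrays were below both 4h arrays, and in Nanog the groups overlapped. The errors hold the spread of all groups, and the 24h arrays differed in Nanog, at -1.76 and 1.57. Gbx2, a homeobox factor induced by LIF, rose by 0.81 ± 0.20 (adjusted p = 0.038) and Pecam1, a surface adhesion molecule, by 0.41 ± 0.10 (adjusted p = 0.0369); neither was called without the block. Of 17 general pluripotency genes, Gdf3, a TGF-beta family ligand, was the only one called and fell by 0.49 ± 0.13 (adjusted p = 0.047). Without the block Gdf3 was not called (adjusted p = 0.153). Another of its probes changed by -0.39 without a call (adjusted p = 0.0904). Pou5f1 and Sox2 changed by 0.10 ± 0.24 and -0.11 ± 0.12.

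Of the genes of the formative state, which follows the naive state, Dnmt3a, Cdh2 and Grhl2 rose. Of 19 tested, 3 were higher (15.8%, against 4.39% of all genes tested) and none lower. In this list 14 changes were above 0 and the median was 0.31. Dnmt3a, a de novo DNA methyltransferase, stood at -2.09 and -2.06 at 4h and at -0.52 and -0.90 at 8h (1.37 ± 0.13, 2.58-fold, adjusted p = 0.00121). It was called without the block and without any 1 of the 4 arrays. It was also the only 1 of 10 DNA methylation enzymes called. Cdh2, N-cadherin, rose by 1.38 ± 0.26 (adjusted p = 0.0155) and Grhl2, an epithelial transcription factor, by 1.09 ± 0.22 (adjusted p = 0.0216), both lost without the block (adjusted p = 0.0672 and 0.659). Fgf5 and Otx2, the best known epiblast genes of the list, changed by 0.85 ± 0.33 (adjusted p = 0.14) and 0.36 ± 0.16 (adjusted p = 0.2).

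Among lineage genes, the mesendoderm and streak list of 17 had 2 higher and 1 lower. That is 11.8% and 5.88%, against 4.39% and 4.25% of all genes tested. T, the streak factor Brachyury, did not reach well above background at 4h, and its 8h arrays (-3.26 and -4.26) were higher by at least 2.15-fold (adjusted p = 0.0432). For Mesp1, a factor of cardiac mesoderm, the bound was 1.56-fold (adjusted p = 0.0326). Evx1, a homeobox factor of the streak, stood at 1.67 and 0.34 at 4h and at 0.41 and -0.48 at 8h (-1.04 ± 0.27, adjusted p = 0.0435), and its groups overlapped. Its mean had risen from -2.83 at 0h to 1.01 at 4h and was -2.76 at 24h. Leaving the 24h arrays out of the fit ended the call of Evx1 (adjusted p = 0.0515) and made one for Hand1, a mesoderm factor at 1.07 ± 0.29 (adjusted p = 0.0525 with them, 0.0391 without). Of 15 trophoblast genes, 2 were higher (13.3%, against 4.39% of all genes tested). Ascl2, an imprinted factor of the placenta, rose from -0.97 and 0.06 to 0.80 and 1.56 (1.63 ± 0.15, adjusted p = 0.0011), and Krt19, a keratin, was 2.14-fold higher (adjusted p = 0.0306). Cdx2, the trophectoderm factor, changed by -0.14 ± 0.55; its mean had moved from -4.54 at 2h to -0.27 at 4h. Of 21 primitive endoderm genes, Lrp2, an endocytic receptor, was the only one called (1.42 ± 0.24, adjusted p = 0.0107), with Gata6 at 0.30 ± 0.40. Of 11 neural progenitor genes, Ncam1, an adhesion molecule, was lower (-0.88 ± 0.17, adjusted p = 0.017), and 10 of the 11 changes were below 0. Of 13 Hox genes tested, Hoxd13 was lower (-1.19 ± 0.29, adjusted p = 0.0397). None of T, Mesp1, Evx1, Ascl2, Krt19, Lrp2, Ncam1 and Hoxd13 was called without the block. Ascl2 kept its call without any 1 of the 4 arrays, T and Krt19 lost it without each of the 4, and the other 5 lost it without 3 of them. Of the cell type markers, 4 of 5 for trophoblast were well above background on all 4 arrays. The same held for 2 of 5 for mesoderm and streak and 2 of 6 for primitive endoderm. In each of these sets 1 marker was well above background on none of the 4 arrays: Elf5 (trophoblast), Mixl1 (mesoderm) and Pdgfra (primitive endoderm).

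Of 16 FGF ligands and receptors tested, 2 were higher (12.5%, against 4.39% of all genes tested) and 2 lower (12.5%, against 4.25%). Fgfr4, an FGF receptor, stood at -1.39 and -1.83 at 4h and at 0.83 and 0.13 at 8h, higher by 2.09 ± 0.16 (4.26-fold, adjusted p = 0.000552). It was called without the block and without any 1 of the 4 arrays, and its mean was 4.18 at 24h. Another of its probes changed by 1.04 ± 0.56 and was not called (adjusted p = 0.278). The ligand Fgf1 was higher by 1.64 ± 0.33 (adjusted p = 0.0199), although another of its probes changed by -0.71 without a call. Fgfrl1, a receptor without a kinase domain, stood at 2.45 and 1.90 at 4h and at 1.31 and 1.11 at 8h (-0.96 ± 0.11, adjusted p = 0.00232), and Fgfr2 was lower by 0.36 ± 0.09 (adjusted p = 0.0401). Only Fgfr4 of the 4 was called without the block. Of 10 EGF family genes, the ligand Areg was at least 1.44-fold higher (adjusted p = 0.0112) and Egf changed by -0.80 ± 0.16 (adjusted p = 0.0196), with some of its arrays not well above background.

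Of 29 Wnt pathway genes, 1 was higher and 2 lower. That is 3.45% and 6.90%, near the 4.39% and 4.25% of all genes tested. Wnt6, a ligand, stood at -1.31 and -2.05 at 4h and at 1.27 and 0.49 at 8h (2.57 ± 0.43, 5.92-fold, adjusted p = 0.0109). Tcf7l1, a repressor of Wnt targets, fell by 0.82 ± 0.20 (adjusted p = 0.0401) and Znrf3, which removes Wnt receptors from the surface, by 0.80 ± 0.15 (adjusted p = 0.0168). Of 14 genes of LIF and Stat3 signalling, Bcl3, a nuclear I-kappa-B protein, was the only one called (0.96 ± 0.18, adjusted p = 0.0154). None of 16 BMP pathway genes was called, with Bmp4 at 0.30 ± 0.21, and of 17 Nodal and activin genes only Gdf3 was. Wnt6 and Bcl3 were called without the block.

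Retinoic acid genes held the most calls for their number among the 40 lists, 6 of 14, in both directions. The list had 3 higher (21.4%, against 4.39% of all genes tested) and 3 lower (21.4%, against 4.25%). Aldh1a3, which makes retinoic acid, stood at -1.70 and -1.56 at 4h and at 1.38 and 0.57 at 8h (2.60 ± 0.41, 6.08-fold, adjusted p = 0.00828). Its mean had stood at -5.07 at 2h. Cyp26a1, which degrades retinoic acid, stood at -1.22 and -2.04 at 4h and at 0.97 and 0.20 at 8h (2.21 ± 0.58, adjusted p = 0.0477). Crabp2, which carries retinoic acid to the nucleus, stood at 2.44 and 2.71 at 4h and at 1.22 and 1.80 at 8h (-1.07 ± 0.11, adjusted p = 0.00188). The receptor Rxra and the synthetic enzyme Aldh1a2 fell by 0.97 ± 0.19 and 0.59 ± 0.11 (adjusted p = 0.0177 and 0.017), while another probe of Rxra changed by -0.16 without a call. Of the 6, Crabp2 was called without any 1 of the 4 arrays and Aldh1a3 without the block.

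The called integrins, cadherins and guidance molecules were all higher at 8h. Of 16 integrins and cadherins, 4 were higher (25%, against 4.39% of all genes tested) and none lower. Itga3, a laminin receptor subunit, stood at -1.06 and -1.31 at 4h and at 1.32 and 0.54 at 8h (2.12 ± 0.35, 4.33-fold, adjusted p = 0.00996). Itga7, another laminin receptor subunit, rose by 1.26 ± 0.21 (adjusted p = 0.0109) and Itgb7, a leukocyte integrin subunit, by 0.73 ± 0.17 (adjusted p = 0.0324). Of 18 guidance molecules, 3 were higher (16.7%, against 4.39% of all genes tested) and none lower. They were the semaphorin co-receptor Nrp2 (1.56 ± 0.27, adjusted p = 0.0112) and the semaphorins Sema3e (0.98 ± 0.17, adjusted p = 0.0112) and Sema7a (0.73 ± 0.13, adjusted p = 0.0121). Another probe of Nrp2 changed by 0.83 without a call. Of 14 mesenchymal transition genes, Cdh2 and Hmga2, a chromatin protein, were higher (Hmga2 by 1.55 ± 0.31, adjusted p = 0.0199). Snai2, a repressor of epithelial genes, was lower (-0.91 ± 0.24, adjusted p = 0.0484). In this list 14.3% were higher and 7.14% lower, against 4.39% and 4.25% of all genes tested. Of 12 urokinase, Mmp and Timp genes only Mmp9 was called, and of 16 keratin and junction genes Krt19 was higher and Lor lower. Itga3 and Sema3e were called without the block; Itga7, Itgb7, Cdh2, Nrp2, Sema7a, Hmga2 and Snai2 were not.

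**Figure D4:**
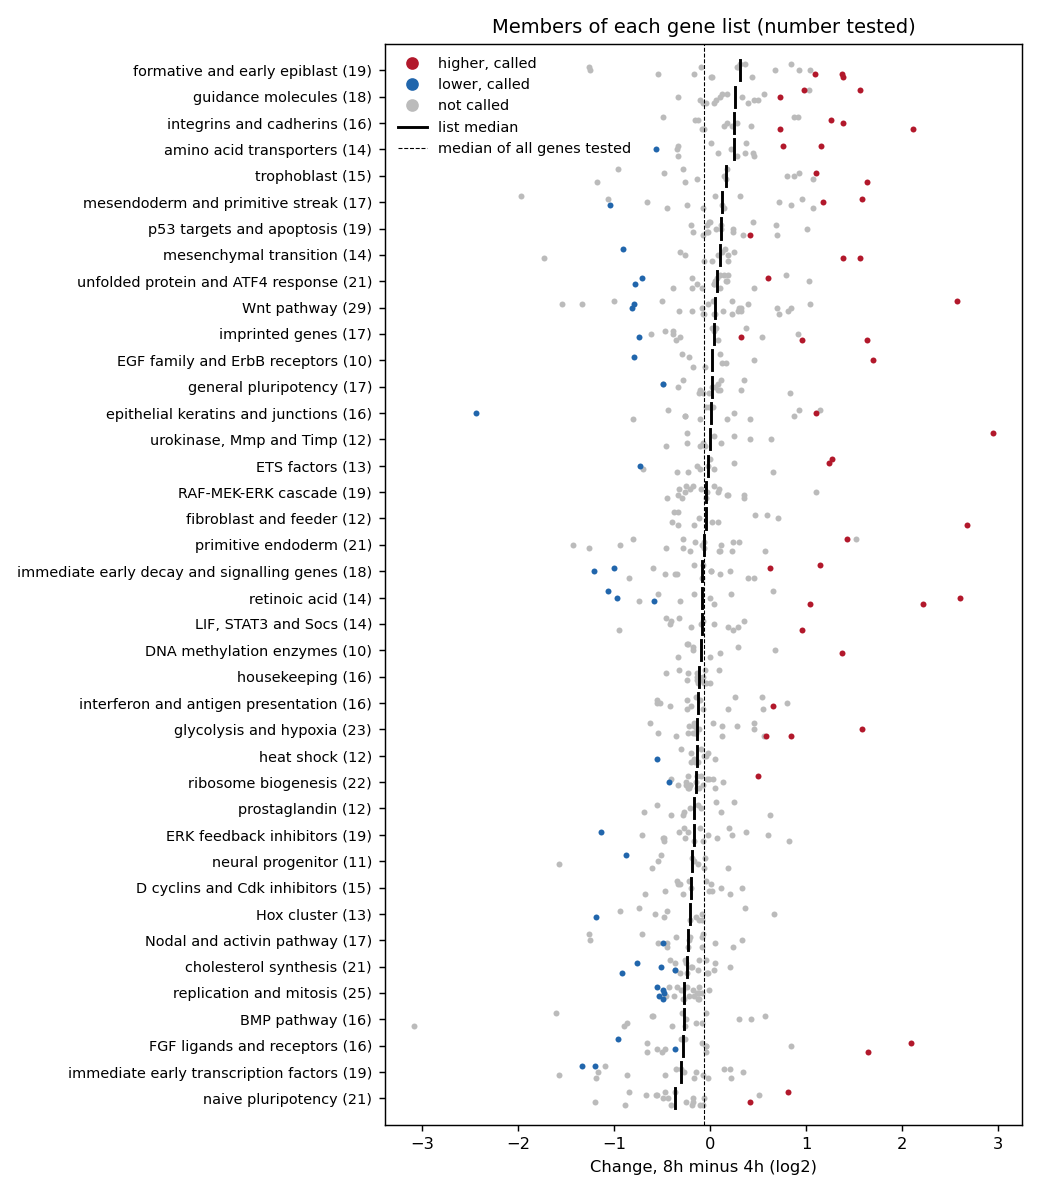
Change from 4h to 8h (log2, x axis) of every tested member of 40 gene lists (rows, with the number tested), ordered by the list's median; red points are higher, blue points lower and grey points not called, vertical bars mark list medians and the dashed line the median of all genes tested (-0.07). List medians run from -0.36 (naive pluripotency) to 0.31 (formative genes), and called members lie on both sides of 0 in many lists.

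In the list of DNA replication and mitosis, 5 of 25 genes tested fell, by small amounts, and 20 were not called. The share lower was 20%, against 4.25% of all genes tested. All 25 fitted changes were below 0, with a median of -0.27, against -0.07 over all genes tested. Pcna, the sliding clamp of DNA polymerase, stood at 7.53 and 7.29 at 4h and at 6.89 and 6.81 at 8h (-0.56 ± 0.09, adjusted p = 0.0108). Rrm1 and Rrm2, the subunits of ribonucleotide reductase, changed by -0.53 and -0.48, Mcm4, a helicase subunit, by -0.50 and Ccnb1, cyclin B1, by -0.49. For Pcna both 8h arrays were below both 4h arrays. Under quantile normalization 3 were called and the median was -0.14, and without the block none was called. None of 15 D cyclins and Cdk inhibitors and none of 16 housekeeping genes was called, with medians of -0.20 and -0.12. Only 1 of the 16 housekeeping changes was above 0, and 1 of 12 in the heat shock list. Over all 15660 genes tested 6263 were above 0. A nearly uniform sign was therefore not particular to the replication list. Of 22 ribosome biogenesis genes, Pes1 was higher (0.50 ± 0.12) and Nip7 lower (-0.43 ± 0.10), and another probe of each changed the other way without a call (-0.23 and 0.08).

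The cholesterol synthesis list of 21 had 4 genes lower (19.05%, against 4.25% of all genes tested). None was higher, against 4.39% of all genes tested. The median change was -0.25, against -0.07 over all genes tested. Insig1, which retains the sterol sensor in the endoplasmic reticulum, stood at -0.08 and -0.40 at 4h and at -1.13 and -1.18 at 8h (-0.92 ± 0.21, adjusted p = 0.0322). Hmgcs1, an early enzyme of the mevalonate pathway, stood at 4.87 and 5.09 at 4h and at 4.45 and 4.48 at 8h (-0.51 ± 0.08, adjusted p = 0.00937). Sc5d, a late enzyme of the pathway, fell by 0.76 ± 0.16. For Insig1 and Hmgcs1 both 8h arrays were below both 4h arrays. None of these 3 was called without the block (adjusted p = 0.0822 to 0.0965). The sterol regulatory element, searched as TCACNCCAC on both strands of the 250 bases upstream of each start, matched 1 of the 15 list genes with a promoter in the RefSeq table. Of the 32851 promoters searched, which did not cover every chromosome, 1.05% held a match. The matching promoter, that of Hmgcs1 (chr13:119690101-119690350, plus strand, GRCm38.p6), is shown with the match in capitals, 137 to 129 bases before the start:
Hmgcs1: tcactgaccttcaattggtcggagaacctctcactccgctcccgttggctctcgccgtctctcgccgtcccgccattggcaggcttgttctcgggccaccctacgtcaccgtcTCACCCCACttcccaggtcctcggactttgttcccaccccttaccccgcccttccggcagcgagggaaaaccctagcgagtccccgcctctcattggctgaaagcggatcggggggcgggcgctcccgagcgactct

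In the list of unfolded protein and ATF4 response genes (21 tested), 1 gene was higher and 2 were lower. That is 4.76% and 9.52%, against 4.39% and 4.25% of all genes tested. The list had 14 changes above 0 and a median of 0.07, against -0.07 over all genes tested. Hspa5, the main Hsp70 chaperone of the endoplasmic reticulum, stood at 5.83 and 6.02 at 4h and at 5.03 and 5.25 at 8h (-0.78 ± 0.14, 1.72-fold lower, adjusted p = 0.0125). Calr, the lectin chaperone calreticulin, stood at 4.81 and 5.10 at 4h and at 4.03 and 4.46 at 8h (-0.71 ± 0.14, adjusted p = 0.0185). Hsp90b1, the Hsp90 of the same compartment, stood at 6.00 and 6.01 at 4h and at 5.53 and 5.69 at 8h (-0.39 ± 0.12, adjusted p = 0.0881), and was not called. In all 3 the 8h arrays were below the 4h arrays. Trib3, a pseudokinase induced by ATF4, rose by 0.60 ± 0.14 (adjusted p = 0.0313). Hspa5 was called without the block (adjusted p = 0.038), Calr and Trib3 were not (adjusted p = 0.134 and 0.368). The ER stress response element was searched as CCAAT, any 9 bases and CCACG on both strands. These 3 chaperone genes were also the only 3 of the list's 20 genes with a promoter searched to hold it. Of all promoters searched, 0.113% (37) held it. That list was chosen for genes of this response, so the match is a description of known promoters. The 250 upstream bases (RefSeq, GRCm38.p6) of Hspa5 (chr2:34771840-34772089, plus strand), Calr (chr8:84846932-84847181, minus strand) and Hsp90b1 (chr10:86705445-86705694, minus strand) are shown for it, each on the gene's strand with matches in capitals:
Hspa5: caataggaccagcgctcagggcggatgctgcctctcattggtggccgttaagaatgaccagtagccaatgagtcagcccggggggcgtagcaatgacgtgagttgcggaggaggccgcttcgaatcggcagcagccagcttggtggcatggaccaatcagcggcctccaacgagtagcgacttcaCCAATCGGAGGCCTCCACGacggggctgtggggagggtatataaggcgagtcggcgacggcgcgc
Calr: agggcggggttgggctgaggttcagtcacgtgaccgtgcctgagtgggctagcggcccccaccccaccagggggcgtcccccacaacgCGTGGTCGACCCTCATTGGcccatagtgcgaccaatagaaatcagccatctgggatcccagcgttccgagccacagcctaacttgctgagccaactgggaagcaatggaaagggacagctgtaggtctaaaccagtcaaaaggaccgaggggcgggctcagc
Hsp90b1: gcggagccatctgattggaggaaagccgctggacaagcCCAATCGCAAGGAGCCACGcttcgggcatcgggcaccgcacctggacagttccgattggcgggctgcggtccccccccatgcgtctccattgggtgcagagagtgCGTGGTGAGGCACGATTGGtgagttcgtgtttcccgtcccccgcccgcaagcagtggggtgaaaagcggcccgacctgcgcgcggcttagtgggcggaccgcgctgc
The match ends 47 bases before the start in Hspa5 and 144 in Calr, where it is on the opposite strand. Hsp90b1 holds 2 matches, ending 194 and 89 bases before its start.

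Of 23 glycolysis and hypoxia genes, 3 were higher and none lower. Ndrg1, a hypoxia-induced stress gene, stood at 0.64 and 0.50 at 4h and at 2.18 and 2.10 at 8h (1.58 ± 0.15, 2.98-fold, adjusted p = 0.00113), and was called without the block and without any 1 of the 4 arrays. Its means were 2.07 at 0h, 1.33 at 2h and 2.10 at 24h, so the 8h arrays stood where the uninduced arrays stood. Egln3, an oxygen-sensing hydroxylase, rose by 0.84 ± 0.20 and Pfkp, a phosphofructokinase, by 0.58 ± 0.15, both lost without the block. Of 14 amino acid transporters, Slc7a7 (1.15 ± 0.22) and Slc6a9 (0.76 ± 0.17) were higher and Slc43a1 was lower (-0.57 ± 0.15). The shares were 14.3% higher and 7.14% lower, against 4.39% and 4.25% of all genes tested. Single members were called in the lists of p53 targets (Mcl1, a survival protein, 0.41 ± 0.08, with another probe at -0.29), interferon genes (Bst2, an antiviral tether, 0.65 ± 0.12) and heat shock (Hspa1a, -0.56 ± 0.13). None of 12 prostaglandin genes was called. Of 17 imprinted genes, Ascl2, Sgce (0.96 ± 0.25) and Snrpn (0.32 ± 0.08) were higher and Impact was lower (-0.74 ± 0.11). Here the shares were 17.6% higher and 5.88% lower, against the same shares of all genes tested. Only Impact of the genes added in this paragraph after Ndrg1 was called without the block (adjusted p = 0.0292).

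The neighbouring steps of the time course gave different counts. From 2 to 4 hours 88 genes were called (0.562%), and from 8 to 24 hours 3584 (22.9%; 12.7% higher and 10.2% lower). These steps share the 4h or the 8h arrays with the step described here, and their lengths differ. The change from 4 to 8 hours was then tested directly against that from 2 to 4 hours. It differed in 93 genes (0.594%), 59 with a positive (0.377%) and 34 with a negative difference (0.217%). Cyth4, higher by 3.19 from 2 to 4 hours and lower by 3.36 after it, had a difference of -6.55 ± 0.44 (adjusted p = 0.00134). Ndrg1 had a difference of 2.34 ± 0.26 (adjusted p = 0.0134), Fgfr4 of 2.02 ± 0.27 (adjusted p = 0.0257) and Thy1 of 2.53 ± 0.36 (adjusted p = 0.0289). Arhgef28, Dnmt3a and Ascl2 were also called with a positive difference. The difference was negative in Lor, Hic1, Gm13889, Tspan18, Ntsr2, Kcna1, Ccn1, Dusp16, Evx1, Fgfrl1 and Dusp4; in Dusp4 it was -2.01 ± 0.35 (adjusted p = 0.045), a rise of 1.53 followed by no called change. Without the block 3 genes were called. The count was 11 without 4h replicate 1, 15 without 2h replicate 1, 27 without 2h replicate 2, 43 without 8h replicate 1 and 146 without 8h replicate 2.

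The genes of this step were then looked up in comparisons made from other arrays, which share none with it but are fitted in the same model. That model gives a gene the same error estimate in every comparison. Genes with a small estimate are thus called more easily in all of them, and the shares of all genes tested are not a like baseline. How much this added to the shares below was not tested. Of the 688 genes higher at 8h, 452 (65.7%) were called higher in 24h against 0h and 41 (5.96%) lower, where 18.3% and 21.1% of all genes tested were. Of the 665 genes lower at 8h, 374 (56.2%) were called lower in that comparison and 44 (6.62%) higher. In 0h against DMSO, which holds the 24-hour treatment with the FGF receptor inhibitor, the shares ran the other way. There 170 (24.7%) of the 688 were called lower and 39 (5.67%) higher, and 155 (23.3%) of the 665 were called higher and 27 (4.06%) lower, against 8.25% of all genes higher and 6.69% lower. Calcoco2 was an example: it was 4.28 higher at 0h than in DMSO, fell by 1.70 from 4h to 8h, and was 4.67 lower at 24h than at 0h. Etv4 was 3.01 lower at 0h than in DMSO and 4.97 higher at 24h than at 0h. Aldh1a3 rose by 8.62 from 0h to 24h, without a call in 0h against DMSO (-0.41, adjusted p = 0.55). Both comparisons contain the 0h arrays, with opposite signs, so they are not independent of each other.

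**Figure D5:**
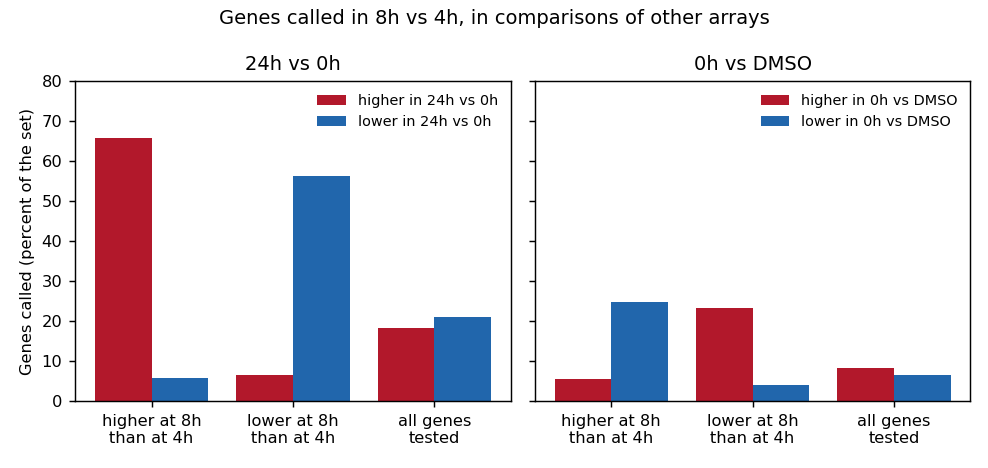
Percent (y axis, from 0) of genes called higher (red) or lower (blue) in 24h against 0h (left) and in 0h against DMSO (right), for the 688 genes higher and the 665 genes lower at 8h than at 4h and for all 15660 genes tested. Of the genes higher at 8h 65.7% are called higher in 24h against 0h, and 24.7% are called lower in 0h against DMSO.

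Calls of single genes should be read with the spread between the 4 arrays. Of 130 genes named by rule, 109 were called, all with the same sign in both pairs. Of these, 31 were called without the block and 19 without any 1 of the 4 arrays, 13 of them under both. Leaving out 4h replicate 1 ended 81 of the 109 calls, 8h replicate 1 ended 82, 4h replicate 2 ended 67 and 8h replicate 2 ended 29, and no change turned its sign. The 13 were Nos3, Arhgef28, Esam, Thy1, Capn2, Mmp9, Otud7a, Dnmt3a, Fgfr4 and Ndrg1 among the rises and Cyth4, Hic1 and Ccn1 among the falls.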

How the data were processed

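RNA of 16 samples was hybridised to Agilent mouse arrays with probe annotation on mm9, 1 array per sample, per the file headers. The authors deposited scanner files read with Feature Extraction 11.0.1.1, whose processed intensity is corrected for background within the array, and a value table that repeats those intensities, rounded, with no scaling between arrays. The labels name Cy5, while the files hold the green channel.

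Samples were taken from the value table's headings. Control spots and outlier flags were left out, spots of a probe were averaged, and log2 of the processed intensity minus the array's 75th percentile was used. Of 55681 probes, 27656 had 1 gene and 28025 none, named through RefSeq (GRCm38.p6). A gene was represented by its probe of highest mean over the 16 arrays, and 15660 of 20972 genes were tested, those that both arrays of some group showed well above background. Limma 3.58.1 (R 4.3.3) fitted 8 group means with the replicate number as a block (7 residual degrees of freedom), with moderated tests and Benjamini-Hochberg adjustment. Replicate numbers paired the samples: replicate differences of 4h and 8h correlated at 0.659, and all 28 pairs of groups were over 0.1 (0.329 to 0.659).

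In a test on simulated data for 8h against 4h (15660 genes), 10.4% of 67 genes changed by 0.5 on the log2 scale were recovered, 62.7% of 67 changed by 1 and 95.5% of 66 changed by 2, with 6 false among 118 calls. The simulated noise was normal and independent, with each gene's fitted spread in every group and an additive replicate block. These are the assumptions of the fit itself, so the test checks the code and does not give the false calls among the real arrays.

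Genes named were the 12 largest rises and falls among called genes measured on all 4 arrays, the 6 largest of each by bound, up to 4 called members per direction of each of 40 lists, and a fixed set of pathway and lineage genes; a few that the rule names are not reported here. The comparison, the lists and that set were chosen with earlier results of these data known. Alternatives covered the block, the samples in the fit, scaling, background correction (normexp, offset 50, on the median spot intensity, as the mean was not used here), the filter, probe choice, sample record, value table, a minimum fold of 1.5 and each array left out.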

Additional observations from a re-analysis of the deposited data

How the results depend on the processing

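For the step from 4 to 8 hours, the count of 1353 genes stayed within 1.5 times under median centring (1430), quantile normalization (1313), normexp (1184), genes above background at 4h or 8h (1464), the mean of a gene's probes (1293) and the authors' value table (1340). Without the replicate block 178 genes were called (127 higher, 51 lower), and without the filter on dim probes 740 (420 and 320). The arrays as attached to the scanner files gave 5 (2 and 3), and a tested minimum fold of 1.5 gave 43 (38 and 5). A limma fit of the compared groups alone called 0 genes in all 4 comparisons, with 3490 at an unadjusted p under 0.05 for 8h against 4h. Without the 24h arrays, chosen after seeing the data, 1587 were called, 1299 of them among the 1353. Leaving out 1 of the 4h or 8h arrays gave 167 to 1593 genes, 112 to 717 higher and 55 to 876 lower.

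For 4h against 2h (88 genes), the counts were 1 without the block, 164 with quantile normalization, 178 with normexp, 51 without the filter, 0 with the attached record, 7 at the minimum fold and 15 to 78 with an array left out. For 24h against 8h (3584 genes), they were 1384 without the block, 14 with the attached record, 447 at the minimum fold and 1831 to 3231 with an array left out. For the difference between the steps (93 genes), they were 3 without the block, 16 without the filter, 0 with the attached record, 3 at the minimum fold and 11 to 146 with an array left out. The causes were not tested, apart from fewer samples or more genes in those fits by construction. No named gene that was called turned its sign under any of these alternatives, which reuse the same arrays and are no independent check of the sign. Signal over background limits the genes not well above it on both arrays of a group, for which only bounds were given.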

Other observations

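Some of the largest fitted falls over all genes were not called and rested on a single array. Spag7 stood at 7.83 and 8.01 at 4h and at -5.46 and 7.85 at 8h (replicates 1 and 2), a fitted change of -6.72 ± 2.86 (adjusted p = 0.174). Ppp2r3c, a phosphatase subunit, stood at 3.17 and 2.81 at 4h and at -7.00 and 2.73 at 8h. Smad7, an inhibitor of BMP and TGF-beta signalling, stood at 2.74 and 3.21 at 4h and at -2.89 and 2.67 at 8h. In these 3 genes, named after their values were seen, 8h replicate 1 alone was low and the other 3 arrays were close to each other.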
